A study of Mus musculus with 9 samples.

Results

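The 311 genes described here were those whose RNA was at least 2-fold more abundant in activated mouse B cells after deletion of Yy1 than in mock-treated cells. Levels are CPM, a gene's count per 1000000 gene counts of the same library. A gene was a member if its mean over the tatcre libraries was at least 3 CPM and at least 2 times its mock mean, and if its lowest tatcre value lay above its highest mock value. Of 48795 genes in the files, 317 met these limits. Thap1, Tnfsf8, Cdkn1a, Zmat3, Utp20 and 1 immunoglobulin heavy chain gene were left out by name, which gave the 311 members, or 2.82% of the 11030 genes with a mean tatcre level of at least 3 CPM. The limits in the other direction (mean mock level at least 3 CPM and at least 2 times the tatcre mean, no overlap) were met by 334 of 10785 genes (3.1%). The last condition alone, no overlap, held for 3415 of the 11030 genes (31%). The measured difference between the groups chose the members, so their levels and ratios are a description and carry no test.

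The cells were follicular B cells, selected on CD23 from spleens of C57BL/6 mice in which both Yy1 alleles are flanked by loxP sites (yy1 fl/fl). Both groups share that genotype: 3 tatcre libraries came from cells given TAT-CRE, a Cre recombinase made to enter cells, and 3 mock libraries from cells that went through the procedure without it. Both were then grown with LPS and IL4, which activate B cells, for 72 hours in 10% serum by the text on the series and for 48 hours in 20% serum by the text on the samples, which also lists TAT-CRE for every sample, so that titles and series text were followed. The series text divides the spleens of 3 mice over the treatments but ties no library to a mouse, so the p-values below measure only the spread between libraries, and exposure to the recombinase cannot be told apart from loss of Yy1.

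Yy1 itself had 99.3, 107 and 102 CPM in mock and 1.02, 1.58 and 2.04 CPM in tatcre libraries, a 66.4-fold lower mean (-6.15 on the log2 scale with an SE of 0.17; adjusted p = 1.7e-08 by edgeR). The libraries held 22729187 to 28230727 counts. The 8 B cell markers summed to 5045 to 5263 CPM in mock and 4395 to 4525 CPM in tatcre libraries, and the summed markers of natural killer cells, macrophages, neutrophils, erythroid cells and platelets stayed at or below 2.99 CPM in each library. The 11 T cell markers summed to 214 to 265 CPM in mock and 135 to 142 CPM in tatcre libraries. Most of this sum was Thy1, and of 4 T cell markers tested 0 were called higher and 3 lower. Cd3e, part of the T cell receptor complex, reached 0 to 0.142 CPM in mock and 0.327 to 0.528 CPM in tatcre libraries. Cd3g and Cd3d, of the same complex, had means of 0.087 and 0.013 CPM in mock and 0.014 and 0 CPM in tatcre libraries. The 7 stromal markers summed to 199 to 233 CPM in mock and 227 to 243 CPM in tatcre libraries. Most of this was Vim, Dcn was at 0, and the collagen gene Col1a1 had 0.748, 0.354 and 0.121 CPM in mock and 1.66, 2.73 and 1.51 CPM in tatcre libraries (log2 fold change 2.15, edgeR adjusted p = 0.018, 0.078 without mock 2 and 0.064 without tatcre 2). Col1a1 was the only 1 of 5 tested stromal markers called higher, and the other 4 were not called. The part of these markers in the results was not tested. No member is among the markers of these or of plasma, dendritic or endothelial cells. Of 15546 genes tested by edgeR, 10.8% (1679) were called higher and 16.3% (2536) lower in tatcre libraries at an adjusted p of 0.05. With libraries scaled by their totals alone the split was 2608 higher and 1895 lower. Mock 3 had a count for the fewest genes, 20420 against 21875 to 23197 in the other libraries. In this bulk RNA, a larger share of cells expressing a gene and more of its RNA per cell cannot be told apart. Without mock 3, 311 genes met the limits, 265 of them members, and without tatcre 2, 239 did, 219 of them members. Without mock 1 or tatcre 3 the limits took in 439 and 472 genes.

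YY1 is a zinc finger protein that binds a short DNA motif near transcription start sites and at enhancers. It recruits partners that raise transcription at some genes and lower it at others, and it helps bring enhancers and promoters together. In the B cell lineage it is needed for early development and in germinal centres, and in resting and activated cells it is among the broadly expressed factors.

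Most members were expressed at a low level. Their mean tatcre level had a median of 6.24 CPM, with 125 members at 3 to 5 CPM, 84 at 5 to 10, 68 at 10 to 30, 27 at 30 to 100 and 7 at 100 CPM or more. The ratio of the tatcre to the mock mean had a median of 2.44 and ranged from 2.0 to 40.3. It reached 3 in 56 members, 4 in 17 and 5 in 9. Over the 11030 genes the median log2 ratio was 0.08, against 1.29 in the members. Members made up 12.4% of genes at 3 to 5 CPM, 2.37% of those at 10 to 30 CPM and 0.30% of those at 100 CPM or more.

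**Figure D1:**
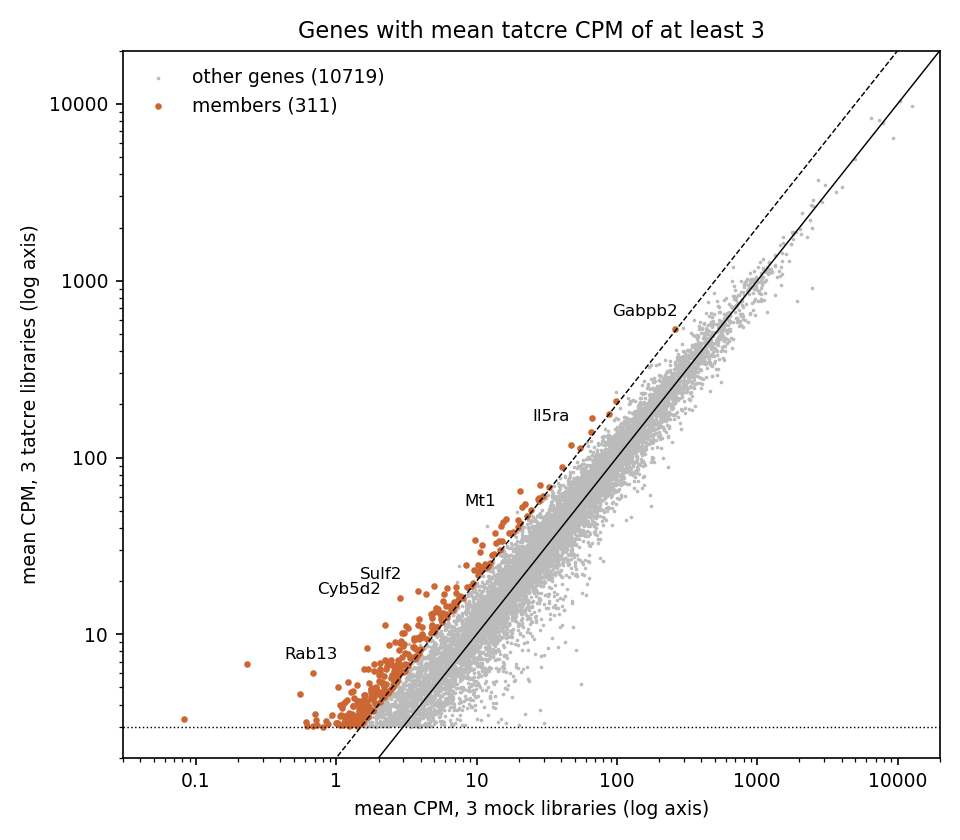
Mean CPM of the 3 mock (x axis) and 3 tatcre libraries (y axis) for the 11030 genes with a mean tatcre level of at least 3 CPM, both on log axes, with the 311 members in orange. The solid line marks equal levels, the dashed line a ratio of 2 and the dotted line 3 CPM; most members lie at the low end, and Gabpb2 is the member with the highest level.

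The members with the largest ratios included genes whose promoter holds the core of the YY1 binding motif, and these sequences are shown because YY1 is the factor removed. The core was searched as AANATGGC (N is any base) on both strands of RefSeq promoters (GRCm38.p6), from 250 bases before to 50 bases after the annotated start. Of the 15 members with the largest ratios 12 had a promoter in the table, and 5 of these 12 held the core. The 15 were ranked by the ratio that chose the members, so this count is a description and carries no test. The core was in 9.66% of all member promoters and in 11.2% of those of genes with a mean tatcre level of at least 3 CPM. Each line gives 30 bases around it, 5′ to 3′ on the strand that carries the core, with the core in capitals.
Gm11520: tgcccaattccAAAATGGCgctgactggcc
Rab13: aagaccttccgAAGATGGCgaagcaacacg
Cyb5d2: cgccctcaacaAAGATGGCggcagaggcgg
BC051226: tgccgtacggcAACATGGCgcgccccatct
Fbxo36: ggtggcgtcccAAGATGGCgtcgtggctgc
These windows are chr11:95310312-95310341 (minus strand), chr3:90213704-90213733 (minus strand), chr11:72796025-72796054 (plus strand), chr17:33909308-33909337 (plus strand) and chr1:84839859-84839888 (plus strand). Counted from the start of the gene, the first base of the core, on the gene's strand, lay at -93 in Gm11520, at 1 in Rab13, at -204 in Cyb5d2, at -148 in BC051226 and at 30 in Fbxo36. The core thus covered the annotated start of the transcript in Rab13 and lay within the transcribed part in Fbxo36.

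Over all members the core was found in 20 of 207 members with a promoter in the table (9.66%) and in 887 of 7933 genes with a mean tatcre level of at least 3 CPM (11.2%). On the gene's own strand alone it was found in 7 members (3.38%) and 560 genes (7.06%). The median ratio was 2.45 for the 20 members with the core and 2.43 for the 187 without it. Other members with the core were named after their values were seen. They included the intraflagellar transport gene Ift88, the calcineurin regulator Rcan1, the serine racemase gene Srr and Tyw3, an enzyme of transfer RNA modification, shown with the same capitals.
Ift88: gagaccagagcAAGATGGCccggatgaata
Rcan1: tgcccctaacaAATATGGCcgccccaaggc
Srr: cagccgccgcgAAGATGGCggaggggttgg
Tyw3: accgtggcggcAATATGGCtgcgcccatgg
A match is a run of letters, not a measured binding site. The E box CACGTG was found in 6.28% of member promoters and 12.3% of all, the GC box GGGCGG in 61.8% and 70.3%, the TATA box TATAAA in 9.18% and 7.87%, and the CCAAT box in 45.4% and 43.8%. None of these motifs contains another. Median GC content was 60% in member promoters and 61.3% in all.

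Rab13, a small GTPase of vesicle traffic to cell junctions, had the largest ratio among members with an established name. It lies at chr3:90213715-90226387 and had 0.90, 0.32 and 0.85 CPM in mock and 6.11, 5.41 and 6.54 CPM in tatcre libraries. The mock values rest on 24, 9 and 21 counts. Its ratio was 8.76, and the lowest tatcre value was 6.03 times the highest mock value. Its close relative Rab8a, which is not a member, fell from 359 ± 10.4 to 195 ± 7.44 CPM (SD, n = 3 each; log2 fold change -0.99, edgeR adjusted p = 7.4e-06). Rab8b had a log2 fold change of -0.28 (edgeR adjusted p = 0.030, and 0.12 when scaled by library total).

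Cyb5d2 encodes a heme-binding protein of the cytochrome b5 family. Its levels were 3.63, 3.40 and 1.53 CPM in mock and 15.2, 16.3 and 16.7 CPM in tatcre libraries, so that the tatcre values were close together and mock 3 was the lowest. The ratio was 5.64, and 4.58 without mock 3. The paralog Cyb5d1 had 14.5 ± 1.03 CPM in mock and 14.1 ± 0.97 CPM in tatcre libraries, and did not pass the test (log2 fold change -0.14, edgeR adjusted p = 0.40). Among 10 other tested genes of the fixed list of cytochrome b5 proteins and reductases, 1 was called higher and 3 lower. The promoter of Cyb5d2 (chr11:72795840-72796089, minus strand, the 250 bases before the start) is printed with the core in capitals as it reads on the gene's strand, where the core is reversed.
Cyb5d2 promoter: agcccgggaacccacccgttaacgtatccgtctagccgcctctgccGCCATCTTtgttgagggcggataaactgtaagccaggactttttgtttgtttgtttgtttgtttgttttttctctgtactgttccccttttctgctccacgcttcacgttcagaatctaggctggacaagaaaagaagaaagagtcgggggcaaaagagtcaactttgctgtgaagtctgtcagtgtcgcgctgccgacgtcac

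Fbxo36, an F-box gene, had 1.5, 0.92 and 1.21 CPM in mock and 5.82, 5.28 and 5.11 CPM in tatcre libraries, a ratio of 4.47. It overlaps Trip12 on the opposite strand. Trip12, which is not a member, rose from 382 to 554 CPM in the mean (log2 fold change 0.43, edgeR adjusted p = 0.00075). Of 48 other F-box genes tested, 10 were called higher and 6 lower, beside 9.20% and 16.6% of all tested non-members. The same shares are the background for each list of non-members.

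The largest ratios of all belonged to noncoding or predicted genes whose mock levels were near 0. 2900052L18Rik had 0, 7 and 0 counts in mock libraries and 3.44, 2.68 and 3.88 CPM in tatcre libraries. Gm11520 had 7, 11 and 1 counts in mock and 8.4, 6.34 and 5.64 CPM in tatcre libraries. The ratios of 40.3 and 29.5 therefore rest on few mock counts. Members with such names numbered 101 (32.5%), against 1373 of the 11030 genes (12.4%).

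**Figure D2:**
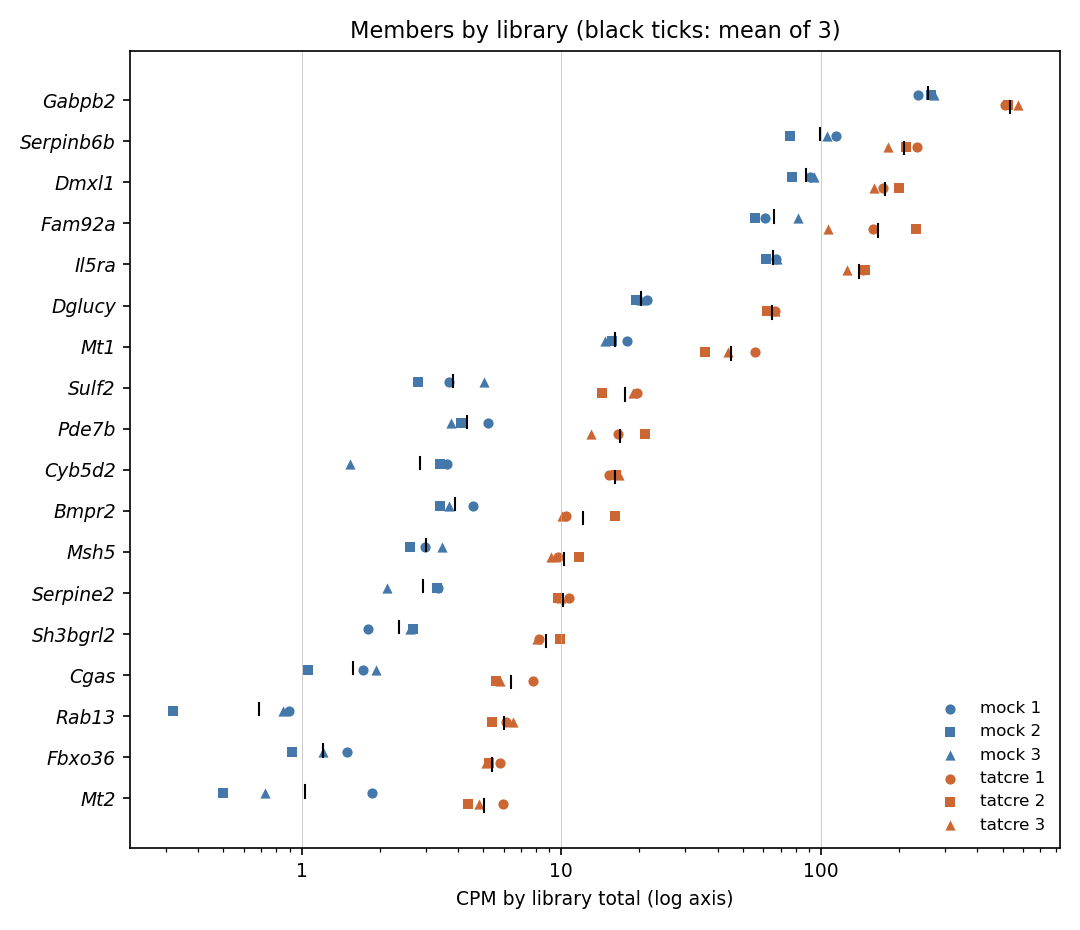
CPM of 18 members in each of the 3 mock (blue) and 3 tatcre libraries (orange) on a log axis, ordered by level, with black ticks at the group means. Groups do not overlap by the rule; Gabpb2 has 237 to 272 CPM in mock and 509 to 571 CPM in tatcre libraries, and Rab13 has the widest separation of the genes shown.

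Among members with a role in transcription, Gabpb2 had the highest level of any member. It encodes a beta subunit of the GA-binding protein, which pairs with the DNA-binding subunit Gabpa. Gabpb2 had 237, 265 and 272 CPM in mock and 509, 525 and 571 CPM in tatcre libraries, a ratio of 2.08. The other beta subunit gene, Gabpb1, fell from 97.8 ± 4.09 to 88.5 ± 5.89 CPM (log2 fold change -0.25, edgeR adjusted p = 0.044, and 0.19 when scaled by library total), and Gabpa did not pass the test (0.01, adjusted p = 0.90). With TMM scaling the log2 ratio of Gabpb2 was 0.95, just under the limit of 1. Kat2b, which encodes a histone acetyltransferase and was named after its values were seen, had 16.9, 13.8 and 15.1 CPM in mock and 32.0, 35.5 and 33.3 CPM in tatcre libraries. Its paralog Kat2a fell from 46.4 ± 2.58 to 39.3 ± 1.47 CPM (log2 fold change -0.34, edgeR adjusted p = 0.015, and 0.052 when scaled by library total). A pseudogene copy, Kat2b-ps, was also a member, and how reads of near-identical copies were assigned was not stated in the labels. Nr1d2, a nuclear receptor of the circadian clock, had 4.82, 6.16 and 5.84 CPM in mock and 12.2, 13.1 and 12.9 CPM in tatcre libraries, and 3 of 17 other clock genes were called higher and 4 lower.

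Enzymes of mitochondria, cofactors and D-amino acids formed a group of 9 members with a median ratio of 2.32, and none had mock 3 under 0.5 times both other mock libraries. Dglucy, the mitochondrial D-glutamate cyclase, had 21.3, 19.4 and 20.3 CPM in mock and 66.5, 61.7 and 66.6 CPM in tatcre libraries. Its ratio was 3.19, and the values within each group lay close together. Srr, which makes D-serine from L-serine, had 12.4, 8.57 and 9.74 CPM in mock and 22.6, 20.3 and 21.7 CPM in tatcre libraries. Qrsl1, a subunit of the mitochondrial glutamyl-tRNA amidotransferase, had 13.4 ± 1.10 CPM in mock and 37.5 ± 3.57 CPM in tatcre libraries. Ppcdc, an enzyme of coenzyme A synthesis, and Coq8a, a kinase-like protein of coenzyme Q synthesis, had ratios of 2.07 and 2.08. Srr and Qrsl1 and the other members of this group except Dglucy and the carrier gene Slc25a24 were named after their values were seen, as were the groups of members by role that follow.

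Metal binding and detoxification genes included both common metallothioneins, small proteins that bind zinc and copper. Mt1 had 17.8, 15.7 and 14.8 CPM in mock and 55.8, 35.8 and 43.6 CPM in tatcre libraries. Mt2, whose gene lies 5.32 kb from Mt1 on chromosome 8, had 1.87, 0.50 and 0.73 CPM in mock and 5.98, 4.36 and 4.82 CPM in tatcre libraries. The ratios were 2.80 and 4.91, and in both genes the first library of each group was the highest. Mt3 had at most 3 counts in a library. The Mt2 promoter (chr8:94172368-94172617, plus strand) is shown for the core of metal response elements, searched as TGCACNC or TGCGCNC and in capitals on either strand.
Mt2 promoter: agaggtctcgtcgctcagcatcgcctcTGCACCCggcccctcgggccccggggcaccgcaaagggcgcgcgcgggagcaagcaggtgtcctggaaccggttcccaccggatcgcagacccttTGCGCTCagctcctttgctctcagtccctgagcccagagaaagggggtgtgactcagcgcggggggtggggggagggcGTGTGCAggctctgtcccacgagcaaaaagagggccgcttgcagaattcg
It held the letters 3 times, first at -223 and last at -50 from the start. Such a short pattern is common: it was found in 44.0% of member promoters and 41.0% of all. The glutathione transferases Gstt1 and Gstt3, 2.39 kb apart on chromosome 10, had ratios of 2.92 and 2.15. Gstt1 had 2.99, 2.62 and 2.74 CPM in mock and 7.85, 8.14 and 8.38 CPM in tatcre libraries. Gstt2, another gene of that family with 130 ± 10.8 CPM in mock and 150 ± 11.9 CPM in tatcre libraries, did not pass the test (log2 fold change 0.10, edgeR adjusted p = 0.42).

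Serpins, which block proteases by trapping them, had the largest share of members among the 22 families of gene symbols counted. Of 8 serpin genes with a mean tatcre level of at least 3 CPM, 4 were members. Among 8 tested serpin genes that are no members, 1 was called higher and 3 lower. Over other settings and left-out libraries, 0 to 2 were called higher. Serpinb6b had 114, 75.9 and 106 CPM in mock and 233, 212 and 181 CPM in tatcre libraries. Serpinb9, the inhibitor of granzyme B, had 33.7, 30.3 and 35.0 CPM in mock and 64.0, 77.9 and 62.1 CPM in tatcre libraries. Serpinb6a had 4.11, 4.29 and 4.91 CPM in mock and 8.83, 9.50 and 9.89 CPM in tatcre libraries. These 3 genes lie in a cluster of 16 Serpinb genes that spans 1161 kb of chromosome 13, with ratios of 2.11, 2.06 and 2.12. Serpinb1a, at the end of the cluster, missed the limit of 2 and rose by the test (4.05 ± 0.17 to 7.54 ± 1.51 CPM, log2 fold change 0.79, edgeR adjusted p = 0.0091, and 0.054 without tatcre 1). Serpinb1b did not pass it (log2 fold change 1.63, edgeR adjusted p = 0.057), and the other 11 genes of the cluster had too few counts to test. The close copies in this cluster share sequence, so reads could be split among them.

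**Figure D3:**
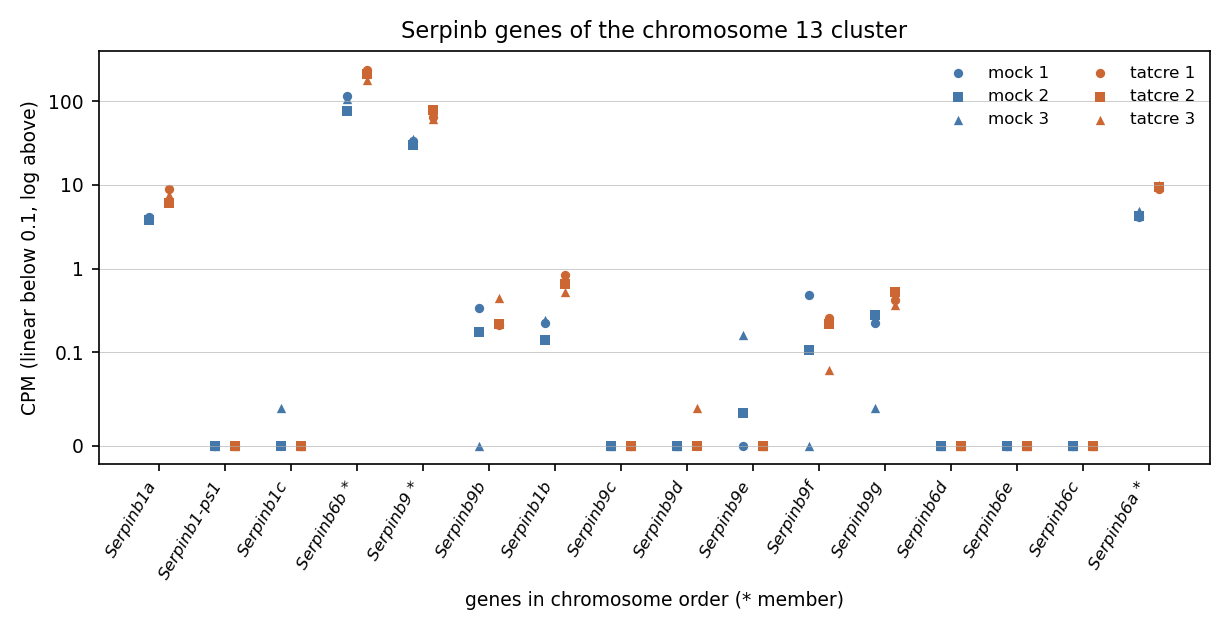
CPM of the 16 Serpinb genes of the chromosome 13 cluster in each mock (blue) and tatcre library (orange), genes in chromosome order, with a y axis that is linear below 0.1 and logarithmic above. The 3 members, marked with an asterisk, have tatcre values above all mock values by the rule. So do Serpinb1a and, at or below 0.85 CPM, Serpinb1b and Serpinb9g. Most genes between the members are at or near 0.

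Serpine2, an inhibitor of thrombin and plasminogen activators, lies outside that cluster. It had 3.37, 3.33 and 2.13 CPM in mock and 10.7, 9.68 and 9.93 CPM in tatcre libraries, a ratio of 3.44. Slpi, a secreted inhibitor of neutrophil elastase, had 2.73, 1.42 and 1.61 CPM in mock and 5.18, 4.31 and 5.19 CPM in tatcre libraries. Of 10 other tested genes of the fixed list of protease inhibitors, 2 were called higher and 5 lower. Serpina3g fell from 59.3 to 45.3 CPM (log2 fold change -0.49, edgeR adjusted p = 0.0045) and Cst7, cystatin F, from 13.9 to 6.42 CPM (-1.21, adjusted p = 0.00047).

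Surface receptors among the members served cytokines, growth factors of the TGF beta family and Wnt proteins. Il5ra, the specific chain of the interleukin-5 receptor, had 67.2, 61.4 and 67.9 CPM in mock and 145, 148 and 126 CPM in tatcre libraries, a ratio of 2.13. Its signalling partner, the common beta chain Csf2rb, fell from 15.4 ± 2.84 to 4.60 ± 1.08 CPM (log2 fold change -1.85, SE 0.18, edgeR adjusted p = 5.3e-05), and the related Csf2rb2 from 1.62 to 0.48 CPM (adjusted p = 0.0088). Of 35 other interleukins and interleukin receptors tested, 3 were called higher and 12 lower. The bone morphogenetic protein receptor Bmpr2 had 4.56, 3.40 and 3.70 CPM in mock and 10.4, 16.1 and 10.1 CPM in tatcre libraries, with tatcre 2 the highest. Bmpr1a and the activin receptor Acvr2a had ratios of 2.0 and 2.10. Of 25 other tested genes of TGF beta, BMP and activin signalling, 3 were called higher and 6 lower, and Tgfbr1, the TGF beta type I receptor, fell from 22.9 to 9.04 CPM (log2 fold change -1.44, edgeR adjusted p = 1.3e-05). Ryk, a Wnt receptor, had 11.6, 10.1 and 11 CPM in mock and 34.9, 31.9 and 28.6 CPM in tatcre libraries. Of 43 genes with a mean tatcre level of at least 3 CPM and a symbol of Cd followed by a number, 0 were members, beside 2.82% of all genes at that level. Of 48 genes so named that were tested, 0 were called higher and 20 lower by edgeR (higher at an unadjusted p under 0.05, 3; called higher by DESeq2, 1). Raet1d and Ulbp1, ligands of the activating receptor NKG2D, had 1.26 ± 0.53 and 14.7 ± 1.41 CPM in mock and 3.42 ± 0.31 and 30.2 ± 1.69 CPM in tatcre libraries.

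Among signalling enzymes, Pde7b, which degrades cyclic AMP, had 5.2, 4.11 and 3.74 CPM in mock and 16.6, 20.9 and 13 CPM in tatcre libraries. The ratio was 3.87. Its paralog Pde7a had 59.2 ± 2.37 CPM in mock and 63.7 ± 2.56 CPM in tatcre libraries and did not pass the test (log2 fold change 0.00, edgeR adjusted p = 0.997). Of 19 other phosphodiesterases tested, 5 were called higher and 0 lower by edgeR (lower at an unadjusted p under 0.05, 1; called lower by DESeq2, 0). The 5 were Pde1b, Pde3b, Pde4d, Pde6g and Pde8a, and only Pde8a was still called higher without mock 2. Rapgef3, a cyclic AMP-activated exchange factor for Rap proteins, had a ratio of 2.06. Of 27 other tested genes of cyclic AMP signalling, 7 were called higher and 2 lower, and 3 were called higher without mock 2. The transcription factor gene Crem rose from 119 to 217 CPM (log2 fold change 0.76, edgeR adjusted p = 0.0013), and Creb1 fell from 181 to 155 CPM (-0.33, adjusted p = 0.0075). Sulf2, a sulfatase that trims heparan sulfate at the cell surface, had 3.70, 2.80 and 5.03 CPM in mock and 19.5, 14.3 and 18.8 CPM in tatcre libraries, a ratio of 4.57. Its relative Sulf1 had at most 3 counts in a library. The adaptor-like gene Sh3bgrl2 had 2.37 ± 0.50 CPM in mock and 8.71 ± 0.99 CPM in tatcre libraries, and its relatives Sh3bgrl and Sh3bgrl3 did not pass the test (edgeR adjusted p = 0.13 and 0.87; that of Sh3bgrl was 0.032 without mock 3).

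Genes of the p53 response were present with Phlda3, which restrains AKT signalling, and Psrc1, a spindle protein. Phlda3 had 3.74, 4.29 and 4.19 CPM in mock and 12.4, 9.11 and 11.5 CPM in tatcre libraries. Psrc1 had 61.0, 49.9 and 52.7 CPM in mock and 121, 103 and 115 CPM in tatcre libraries. Of 30 other p53 targets tested, 13 were called higher and 3 lower, beside 9.20% and 16.6% of all tested non-members. The 13 include Cdkn1a and Zmat3, which met the limits but were left out of the members by name. Ccng1 rose from 449 to 761 CPM (log2 fold change 0.65, edgeR adjusted p = 0.0015), whereas Pmaip1, a promoter of cell death, fell from 151 to 109 CPM (-0.57, adjusted p = 0.0024). Cdkn2a, the locus of a cell cycle inhibitor and of an activator of p53, had 20.6, 21.2 and 21.9 CPM in mock and 57.3, 49.8 and 51.0 CPM in tatcre libraries. The neighbouring Cdkn2b, with 3.43 ± 0.23 CPM in mock and 4.07 ± 0.13 CPM in tatcre libraries, did not pass the test (edgeR adjusted p = 0.61).

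Cgas, the sensor of cytosolic DNA, had 1.72, 1.06 and 1.93 CPM in mock and 7.77, 5.59 and 5.80 CPM in tatcre libraries, a ratio of 4.06. Tmem173, which encodes the downstream adaptor STING, fell from 134 ± 10.4 to 115 ± 5.59 CPM (log2 fold change -0.32, edgeR adjusted p = 0.014, and 0.065 when scaled by library total). Of 19 other pattern recognition receptors tested, 3 were called higher and 9 lower, and of 35 interferon-stimulated genes 2 were called higher and 13 lower. None of the 33 interferon-stimulated genes with a mean tatcre level of at least 3 CPM was a member, beside 2.82% of all genes at that level. Msh5, a meiotic relative of the mismatch repair proteins, had 2.99, 2.62 and 3.46 CPM in mock and 9.72, 11.7 and 9.15 CPM in tatcre libraries, and its partner Msh4 had at most 5 counts in a library.

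Several fixed lists of B cell and immune genes held no member, but members were only 2.82% of genes with a mean tatcre level of at least 3 CPM. The lists held 30 (quiescence), 23 (marginal zone, B-1 and memory), 13 (germinal centre), 17 (chemoattractant and lipid receptors) and 26 (ion channels) such genes. A count of 0 in lists of this size is near that share. Of 33 tested genes linked to quiescence, 2 were called higher and 7 lower, and of 25 genes of marginal zone, B-1 and memory B cells 1 was called higher and 9 lower. Among 19 germinal centre genes 1 was called higher and 5 lower, among 24 receptors for chemoattractants and lipids 1 and 6, and among 35 ion channel genes of blood cells 4 and 7.

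Parts of cilia and centrioles, structures built from microtubules, were encoded by 11 members with a median ratio of 2.51. Fam92a, a membrane-shaping protein of the ciliary base, had 61.0, 55.5 and 81.9 CPM in mock and 159, 233 and 106 CPM in tatcre libraries. The tatcre values were spread widely, and the ratio of 2.51 became 2.01 without tatcre 2. Kiz, a centrosomal protein, had 44.6, 39.7 and 37.2 CPM in mock and 83.3, 94.9 and 86.5 CPM in tatcre libraries. The intraflagellar transport genes Ift81, Ift88 and Ift172 had ratios of 2.68, 2.20 and 2.04, and Ift88 had 10.7, 10.8 and 9.50 CPM in mock and 22.5, 23.4 and 22.1 CPM in tatcre libraries. The intraflagellar transport family was looked at after its values were seen. It had 13 genes with a mean tatcre level of at least 3 CPM, and in the 3 members the rule fixed the sign of the ratio. The 10 non-members all had a log2 ratio of CPM above 0, as did 59.0% of the 11030 genes. The range over the 13 was 0.01 to 1.42, and the median of the 10 non-members was 0.35. Among them Ift57 did not pass the test (log2 fold change -0.10, edgeR adjusted p = 0.62), so its sign differs between the scalings, and Ift52 rose slightly (0.27, adjusted p = 0.033, and 0.13 without tatcre 3). Of 34 centrosomal genes named Cep, 0 were members, beside 2.82% of the 11030 genes. A log2 ratio above 0 was found in 20 of the 34 (58.8%), near the share over all genes.

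**Figure D4:**
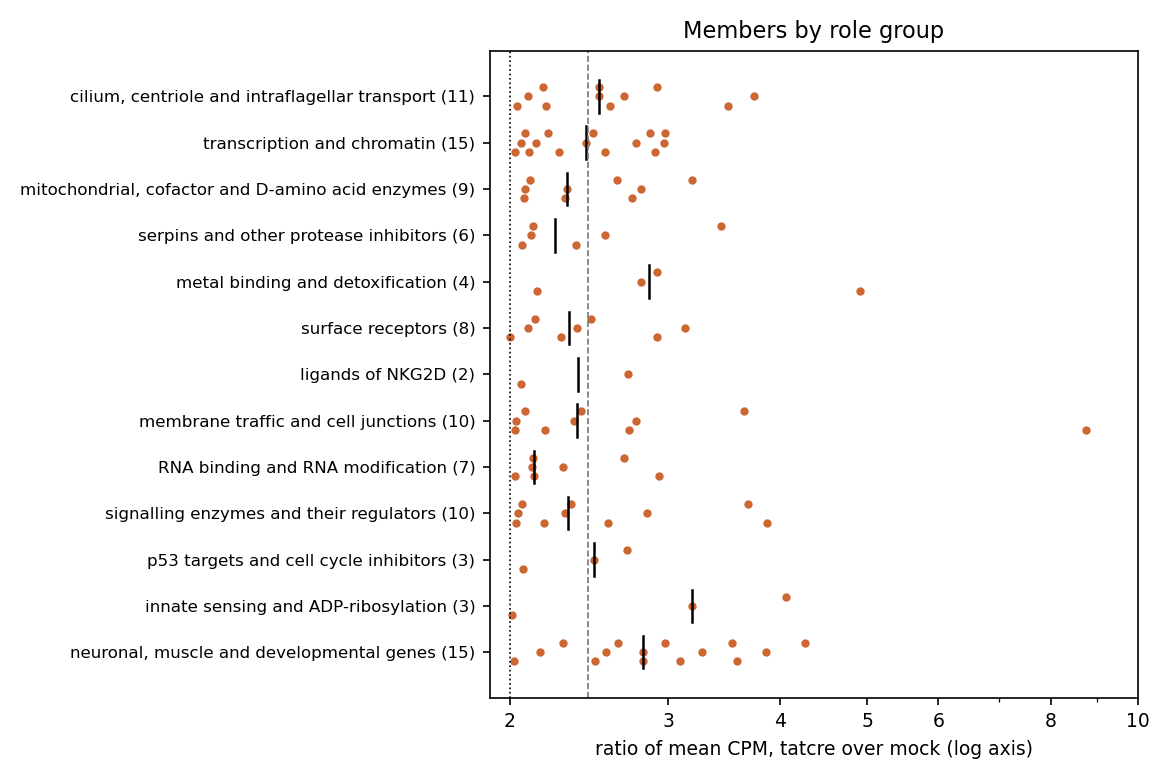
Ratio of the tatcre to the mock mean CPM (log axis) for members sorted into 13 role groups, 1 point per member, with the number of members in brackets and a black tick at the group's median. The dotted line is the limit of 2 and the dashed line the median of all members, 2.44; Rab13 at 8.76 stands apart in the group of membrane traffic and cell junctions.

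Genes of membrane traffic included, beside Rab13, Dmxl1, a regulator of the proton pump of vesicles, and Rab11fip2, an effector of Rab11. Dmxl1 had 91.0, 77.3 and 93.8 CPM in mock and 173, 199 and 159 CPM in tatcre libraries. Rab11fip2 had 24.7, 21.8 and 26.2 CPM in mock and 46.7, 56.5 and 48.1 CPM in tatcre libraries. Both were near the limit, with ratios of 2.03 and 2.08. Of 103 other Rab proteins and their regulators tested, 11 were called higher and 16 lower. The junction scaffold genes Magi3 and Afdn had ratios of 2.76 and 2.71, and Cttn, an actin-binding protein of the cell cortex, had 1.42 ± 0.39 CPM in mock and 5.15 ± 0.76 CPM in tatcre libraries.

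RNA-binding members included Igf2bp3 and Igf2bp2, which stabilise messenger RNAs. Igf2bp3 had 33.4, 26.2 and 23.7 CPM in mock and 60.3, 62.6 and 54.1 CPM in tatcre libraries. Igf2bp2 had 5.16, 3.01 and 1.29 CPM in mock and 6.32, 8.45 and 5.23 CPM in tatcre libraries, with mock 3 the lowest, and its ratio of 2.11 became 1.63 without mock 3. Snrnp35, a protein of the minor spliceosome, had 28.7, 28.4 and 24.8 CPM in mock and 59.0, 55.7 and 59.5 CPM in tatcre libraries.

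A group of 15 members is known mainly from neurons, muscle or embryonic development. Sema6a, a guidance ligand, had 1.5, 0.39 and 0.28 CPM in mock and 3.35, 3.83 and 2.04 CPM in tatcre libraries. Gpr85, an orphan receptor, had 3.89, 2.13 and 0.12 CPM in mock and 4.88, 9.02 and 5.07 CPM in tatcre libraries, and its ratio of 3.09 became 2.10 without mock 3. Ntf5, a neurotrophin, had 45, 49 and 1 counts in mock libraries, and its ratio of 2.81 became 1.9. In 9 of the 15 genes mock 3 was under 0.5 times both other mock libraries, against 1 of the 11 cilium genes, and the median ratio of the 15 went from 2.81 to 2.30 without mock 3. The groups were not matched for level: mean tatcre levels were 3.07 to 13.9 CPM in the 15 and 3.81 to 166 CPM in the cilium genes. Chrnb1, a subunit of the muscle nicotinic receptor, was not low in mock 3, with 5.65, 4.11 and 6.04 CPM in mock and 15.2, 12.7 and 13.9 CPM in tatcre libraries.

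Over all members, mock 3 was under 0.5 times both other mock libraries in 41 members (13.2%), against 78 of the 11030 genes (0.707%). Tatcre 2 was over 1.5 times both other tatcre libraries in 44 members. That count was not made over all genes, so whether 44 is a high number cannot be told. Tatcre 2 was the highest tatcre library in 176 members (56.6%), against 37.0% of the 11030 genes. Mock 1 was the highest mock library in 60.1% of members and 39.8% of all genes. Mock 2 was the lowest mock library in 43.4% and 33.7%, and tatcre 3 the lowest tatcre library in 52.4% and 32.7%. A low mock 3 or a high tatcre 2 raises the ratio that chose the members, so the rule favoured such genes. The shares of members and of all genes therefore carry no test, and they were not matched for level. Of the 41 members, 30 had a tatcre level of 3 to 5 CPM and 0 were above 30 CPM. The median coefficient of variation of the members was 22.7% over mock and 15.9% over tatcre libraries, against 8.13% and 8.79% over the 11030 genes. These were not matched for level: the mean over 6 libraries had a median of 4.33 CPM in members and 32.0 CPM in the 11030 genes. The coefficient was 30.6% and 19.0% in the 179 members under 5 CPM by that mean. In the 36 members at 20 CPM and above it was 9.37% and 9.46%. As a measure of reads from genes that B cells hardly use, 1625 olfactory and vomeronasal receptor genes summed to 17.1, 11.7 and 15.7 CPM in mock and 19.7, 28.6 and 14.7 CPM in tatcre libraries, with tatcre 2 the highest; their part in the result was not tested. The median ratio of the members was 2.44, and 2.30 without mock 3 and 2.31 without tatcre 2.

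**Figure D5:**
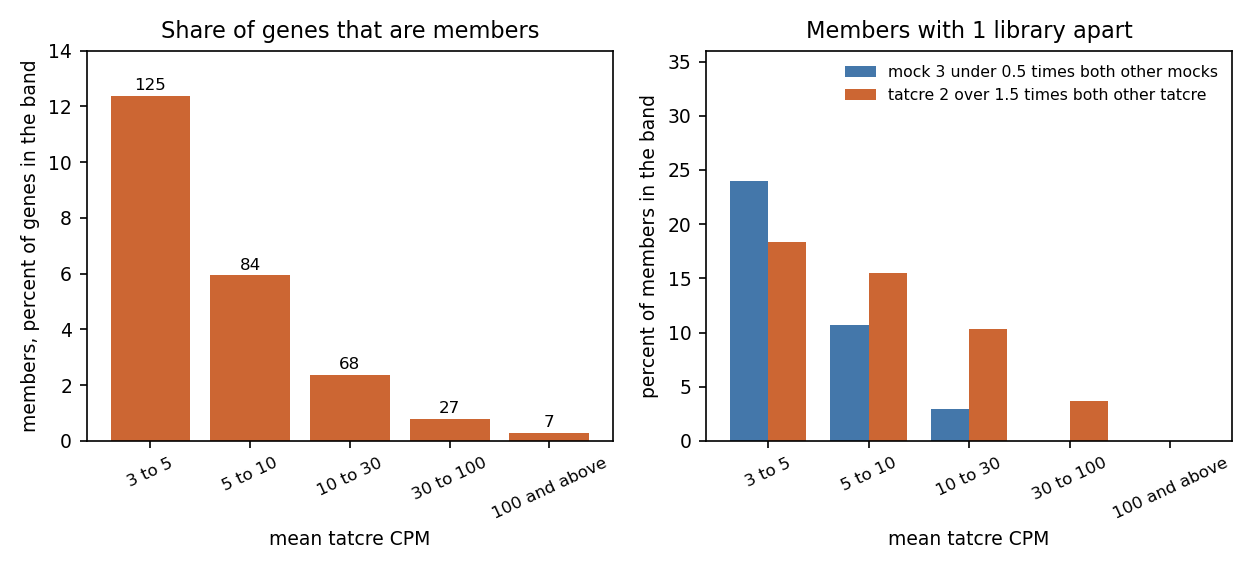
Left, members as a percentage of all genes in 5 bands of mean tatcre CPM, with the number of members above each bar. Right, the percentage of the members in each band in which mock 3 lies under 0.5 times both other mock libraries (blue) or tatcre 2 lies over 1.5 times both other tatcre libraries (orange); both are most frequent at 3 to 5 CPM, with 30 and 23 of 125 members, and absent at 100 CPM or more. Shares over all genes in these bands are not given.

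By annotation, 273 members had a RefSeq gene. Of these 207 (75.8%) were protein coding and 54 (19.8%) long noncoding RNAs, against 87.9% and 2.32% of the 10760 genes with a mean tatcre level of at least 3 CPM and a RefSeq row. Since noncoding genes are expressed at lower levels, shares were compared within bands. At 3 to 5 CPM 27.9% of members and 8.85% of all genes were long noncoding RNAs, and at 10 to 30 CPM 18.5% and 2.20%. The shares were 15.3% and 5.07% at 5 to 10 CPM, 7.69% and 0.776% at 30 to 100 CPM, and 0% and 0.637% at 100 CPM or more. The bands were cut on tatcre levels, which the rule also used. Eldr, a noncoding RNA, had 3.78, 2.37 and 3.30 CPM in mock and 11.2, 11.5 and 10.8 CPM in tatcre libraries. Mirt1 had 26.1, 16.2 and 24.5 CPM in mock and 54.6, 57.5 and 51.0 CPM in tatcre libraries. Coding members had a median gene length of 36 kb, against 24.3 kb for all coding genes with a mean tatcre level of at least 3 CPM. Within bands it was 28.1 kb against 19.9 kb at 3 to 5 CPM, 35.4 kb against 18.4 kb at 5 to 10 CPM and 39.5 kb against 19.6 kb at 10 to 30 CPM.

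Some members lay close to one another. How often other genes do so is not given, so whether the count is low or high cannot be told. There were 14 pairs of members within 100 kb, and they held 28 members. Beside the metallothioneins, the glutathione transferases and the serpins, they included Msh5 with Ddah2 (12 kb apart), Zfp623 with Ccdc166 (30.5 kb), Pla2g4c with Zswim9 (32.8 kb) and Hsf5 with Tspoap1 (98.3 kb). Fam126b and the noncoding Gm15834 overlap on opposite strands. The 928 tested non-members within 100 kb of a member were called higher in 10.8% and lower in 18.5% of cases, against 9.20% and 16.6% of all tested non-members.

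For 28 members a non-member within 100 kb was called lower with an edgeR log2 fold change under -1. Such genes were 3.34% of the 928 neighbours and 3.51% of all tested non-members. Dhdh, 55.8 kb from Ntf5, fell from 27.8 to 1.49 CPM (log2 fold change -4.33, edgeR adjusted p = 1.3e-07). Bphl, 34.8 kb from Serpinb6a, fell from 4.94 to 0.98 CPM (-2.44, adjusted p = 5.6e-05), and Lad1, 49.5 kb from Phlda3, from 79.8 to 26.0 CPM (-1.72, adjusted p = 5.2e-06). Sgsm2, 6.82 kb from Srr, fell from 5.80 to 1.92 CPM (-1.70, adjusted p = 0.00039). Tyw3 overlaps Cryz on the opposite strand: Tyw3 had 11, 13 and 11.5 CPM in mock and 23.2, 24.3 and 24.4 CPM in tatcre libraries, while Cryz fell from 7.71 to 2.97 CPM (-1.47, adjusted p = 0.00030). Of 273 members with a position, 75 overlapped another tested gene. Of the 89 overlapping pairs, the partner was called higher in 10, lower in 13 and in neither direction in 64, and the remaining 2 are Fam126b and Gm15834, each listed once. The labels do not state the strand setting of the counting, so reads of such partners may not be told apart.

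Just inside the ratio of 2 lay Cenpv at 12.1 and 24.2 CPM and Bmpr1a at 2.32 and 4.64 CPM, in mock and tatcre means. Just outside it lay Abhd5 and Plekha1, both with a ratio of 1.99. Just inside the minimum level lay Fbxl12os and Lamb1, with tatcre means of 3.00 and 3.01 CPM, and just outside it Ksr2 and Trim71, both at 2.99 CPM. The lowest tatcre value of Sult1c2 was 1.00 times its highest mock value, and that of Scn8a, just outside, 0.99 times.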

How the data were processed

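RNA was sequenced from 3 mock and 3 tatcre libraries. The authors deposited whole-number counts for each gene, and the submitters' processing notes list mm10 with HTSeq, TopHat2, Trimmomatic, SAMtools and, for peaks, MACS2. Strand setting, annotation and treatment of reads with several positions: not given in the sources used here. Peak lists were not used here.

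CPM were computed by library total. Members and lists were chosen with earlier results of these data known, and role groups after the values were seen. Genes that are no members were tested with edgeR 4.0.16 (R 4.3.3) on the deposited counts: filterByExpr (minimum count 10), TMM, quasi-likelihood test, Benjamini-Hochberg adjustment over 15546 genes, threshold 0.05. DESeq2 1.42.0, other scalings, no filter, left-out libraries and other limits were alternatives. The fit was tested on simulated counts.

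Named members were the 15 with the largest ratio, the 15 with the highest level, the 10 with the widest gap, those in the 16 function lists, up to 5 per symbol family, those within 100 kb of another member and those nearest a limit; others were named after their values were seen. Symbols were known for 48349 gene IDs. Positions and promoters are those of RefSeq GRCm38.p6, with a gene for 273 members and a promoter for 207.

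The totals make 3 counts worth 0.106 to 0.132 CPM in a library. The median edgeR log2 fold change was 0.02 with TMM and 0.13 with library totals, so CPM ratios lie higher than TMM-scaled ones. Same-numbered libraries did not deviate together in every pair, so no pairing was used.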

Additional observations from a re-analysis of the deposited data

How the results depend on the processing

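The 311 members became 758 genes with a minimum of 1 CPM, 102 with 10 CPM, 1002 with a ratio of 1.5 and 56 with a ratio of 3. With a replicate block, in which each tatcre library had to reach 2 times the mock library of the same number, 111 genes were left, all 111 of them members. Leaving out 1 library gave 239 (without tatcre 2) to 472 (without tatcre 3), and TMM, RLE and upper-quartile scaling gave 218, 226 and 271.

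Genes called higher by edgeR numbered 1679, and 2608 with library totals alone, 1313 with the replicate block and 998 (without mock 2) to 1681 when 1 library was left out, with 1002 without tatcre 1. Genes called lower numbered 2536, and 1895 with library totals alone, 2108 with the replicate block and 1960 to 2391 when 1 library was left out. Upper-quartile scaling gave 2229 higher and 2097 lower. Deviations of same-numbered libraries had correlations of 0.06, -0.03 and 0.22, so the numbers were not taken as pairs, and whether such libraries share a mouse is not known.

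The counts of list genes called higher rest on few calls. Over all alternatives they ranged from 1 to 5 for phosphodiesterases (5 as reported; 1 without mock 2 or tatcre 1), 3 to 9 for cyclic AMP signalling (7), 0 to 5 for pattern recognition receptors (3), 1 to 3 for interleukins and their receptors (3), 1 to 5 for clock genes (3), 0 to 2 for protease inhibitors (2, and 0 without tatcre 1), 3 to 5 for TGF beta signalling (3), 6 to 18 for Rab genes (11), 0 to 8 for ion channels (4), 2 to 5 for quiescence genes (2), 0 to 2 for genes named Cd (0), 0 to 2 for cytochrome b5 genes (1), 0 to 3 for chemoattractant and lipid receptors (1), 1 to 3 for interferon-stimulated genes (2), 1 to 3 for marginal zone, B-1 and memory genes (1) and 1 to 2 for germinal centre genes (1). They ranged from 11 to 15 for p53 targets (13) and from 7 to 15 for F-box genes (10). Those called lower ranged from 2 to 6 for TGF beta signalling (6), 9 to 20 for Rab genes (16), 5 to 11 for quiescence genes (7), 9 to 17 for interferon-stimulated genes (13) and 15 to 23 for genes named Cd (20). Phosphodiesterases called lower ranged from 0 to 1 (0), and cyclic AMP genes from 1 to 3 (2).

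Of 698 values under alternatives of the 78 members named by the set criteria above, 0 changed sign and 12 moved by more than the spread between libraries. The rule put every tatcre value above every mock value, so a sign could hardly change and that count carries no test. Members named only after their values were seen, such as Igf2bp2 and Ntf5, are not among the 78. Of 28 named non-members that passed the test, 11 lost it under at least 1 alternative, and of the others Serpinb1b and Sh3bgrl passed it under at least 1; these alternatives were added after seeing the data. The causes were not tested. Low mock levels rest on few counts, and ratios of such members are the least precise.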
